A study of Caenorhabditis elegans with 3 samples.

Results

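The *clec* genes of *Caenorhabditis elegans* encode proteins with a C-type lectin-like domain. They were taken here as all probes whose single gene symbol in the platform's annotation was *clec* followed by a number. This gave 219 probes for 208 genes, of 14936 named genes on the array. RNA of mid-L3 hermaphrodites, larvae of the stage before the last larval stage, was hybridised on 3 two-colour arrays. Each array carried 1 of 3 mid-L3 preps and the same wild-type reference RNA in its other channel. The labels call the reference mixed without saying what was mixed, with no genotype, treatment or culture for the preps beyond the stage. They do not say whether the preps came from separate cultures, so p-values measure only the spread between these preps, which may be technical. Per the RefSeq gene table, 191 of the genes were protein-coding and 17 pseudogenes.

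A C-type lectin-like domain is a compact fold that in many animal proteins binds sugars with the help of calcium. In nematodes the family has grown large, and most of its members are thought to be secreted. Many are known for expression in the intestine and for changes in expression when the worm meets bacterial pathogens, while a few serve in other tissues.

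Values are log2 ratios of the mid-L3 and reference channels, each array centred on its median, with the sign as deposited. Which channel is the numerator is not stated in the sources used here. Ratios are therefore called positive or negative, not higher or lower in mid-L3. Errors are SD over 3 preps. A ratio passed the threshold when its adjusted p was under 0.05 (limma, Benjamini-Hochberg over 19075 features). In whole animals, fewer cells of a type and less RNA per cell cannot be told apart. The arrays correlated at 0.735 to 0.805 over all probes. Of the marker lists, 9 of 12 intestine genes were positive and 0 negative in limma. The oocyte and eggshell list had 10 of 12 negative and the sperm list 32 of 37, each with 0 positive. Of 8 hypodermis markers 5 were positive, of 12 pharynx markers 3 were positive and 1 negative, and of 8 neuron markers 1 was negative. Of 5 male markers and 2 coelomocyte markers 0 passed in limma. Beside these counts, 13.5% of all features were positive and 13.6% negative, so the negative neuron share of 12.5% was near the background.

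Most *clec* genes lay near 0, and a minority spread widely to both sides. The threshold was passed by 49 of the 208 genes, 29 with a positive and 20 with a negative mean, which is 23.6% of the family beside 27.1% of all features. The other 159 passed in neither direction. The positive share was 13.9%, beside 13.5% of all features, and the negative share was 9.62%, beside 13.6%. Both shares were thus close to or below the background. The family's median was 0.09, from 0.08, 0.16 and 0.07 in preps 1, 2 and 3, beside 0.01 over all features. The 159 genes not past the threshold ran from -0.98 to 0.68, with quartiles of -0.08 and 0.24. Absolute means over 1 were seen in 30 genes, 15 on each side, which is 14.4% of the family beside 12.8% of all features. The negative tail reached farther, to -4.20 against 2.56. Leaving out prep 2 lowered the positive count to 17, and leaving out prep 1 or prep 3 lowered it to 21. The negative count was then 19, 17 and 18. Over all features the positive count fell as well, from 2569 to 1748, 2252 and 2046 without preps 2, 1 and 3. The negative count over all features fell from 2602 to 2161, 1901 and 1820.

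**Figure D1:**
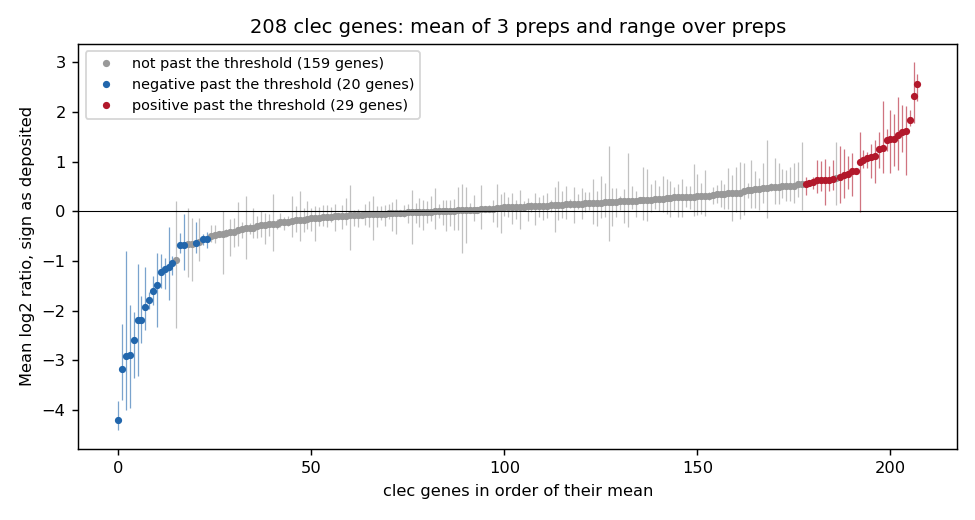
Mean log2 ratio (y axis, sign as deposited) of the 208 *clec* genes in order of their mean (x axis); points are means over 3 preps, vertical lines run from the lowest to the highest prep, and colour gives the limma call. The 159 grey genes form a shelf around 0, with 20 negative genes reaching -4.20 and 29 positive genes reaching 2.56.

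The highest ratios belonged to *clec-57* and *clec-56*, which lie near each other on chromosome V. The ratios of *clec-57* were 2.76, 2.71 and 2.21 in preps 1, 2 and 3, with a mean of 2.56 ± 0.30, a 5.9-fold difference (limma adjusted p = 3.98e-06). Only 74 of the 19075 features had a higher mean. Those of *clec-56* were 2.19, 3.00 and 1.79, with a mean of 2.32 ± 0.62 (limma adjusted p = 2.97e-05). Both genes were far above 0 on every array. The next was *clec-186* on chromosome IV, at 1.72, 2.04 and 1.74, with a mean of 1.83 ± 0.18, a 3.56-fold difference, and its preps were among the closest of the strongly positive genes. By contrast *clec-180*, at 2.04, 2.12 and 0.72 with a mean of 1.63 ± 0.78, was much lower in prep 3 than in the other preps.

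The other genes among the 15 highest were less than 2 log2 units from 0. They were *clec-227* at 1.59 ± 0.50, *clec-41* at 1.54 ± 0.74, *clec-49* at 1.46 ± 0.52, *clec-10* at 1.45 ± 0.63, *clec-166* at 1.43 ± 0.22, *clec-26* at 1.27 ± 0.83 and *clec-52* at 1.25 ± 0.36. Below them came *clec-48* at 1.12 ± 0.47, *clec-42* at 1.10 ± 0.38, *clec-170* at 1.07 ± 0.17 and *clec-64* at 1.04 ± 0.19. Neighbours in this order differed by less than their SD. Across the 29 positive genes prep 3 was the lowest in 18, and prep 2 the highest in 17. Their medians were 1.16, 1.25 and 0.72 in preps 1, 2 and 3. Prep 2 was also the highest for 54.1% of the 2569 positive features of the whole array, and prep 3 the lowest for 41.2%. The 12 intestine markers had medians of 1.10, 1.69 and 1.27 in the same preps, and the 8 hypodermis markers 2.34, 2.26 and 0.64. The part of these tissues in the *clec* ratios was not tested.

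The lowest ratio was that of *clec-91*, on chromosome I, at -3.82, -4.41 and -4.35, with a mean of -4.20 ± 0.32, an 18.3-fold difference (limma adjusted p = 2.72e-07). Only 22 features of the array lay lower. The gene was strongly negative in all preps, with a spread that was small beside its distance from 0. The second was *clec-88*, which encodes a core protein of a chondroitin proteoglycan, at -3.80, -2.27 and -3.46, with a mean of -3.18 ± 0.80 and a 9.05-fold difference (limma adjusted p = 7.74e-06). Next came *clec-60* at -2.91 ± 1.82, described below, and then the adjacent pair *clec-97* at -2.89 ± 1.03 and *clec-98* at -2.59 ± 0.69. Another neighbouring pair, *clec-222* and *clec-223* on chromosome V, had almost equal means of -2.18 ± 0.47 and -2.19 ± 1.12. Their preps differed in different ways. *clec-222* was at -2.18, -1.71 and -2.65, and *clec-223* at -1.07, -2.19 and -3.31.

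The remaining genes of the 15 lowest lay between -2 and -1. *clec-13*, measured by 2 probes with means of -1.94 and -1.90, averaged -1.92 ± 0.69. *clec-264* was at -1.78 ± 0.17, *clec-1* at -1.61 ± 0.30, *clec-266* at -1.49 ± 0.76, *clec-218* at -1.17 ± 0.34 and *clec-19* at -1.03 ± 0.22. *clec-12*, with 2 probes at -1.18 and -1.25, averaged -1.22 ± 0.34, so for both genes with repeated probes and a call the probes gave nearly the same ratio. *clec-47* was at -1.79, -0.32 and -1.24, with a mean of -1.12 ± 0.74, and its call was lost when values were centred within blocks of consecutive probes (limma adjusted p = 0.0521, over alternatives from 0.000365 to 0.246). For comparison, the oocyte and eggshell markers had a median of -2.79 and the sperm markers one of -2.26. The part of germline RNA in the negative *clec* ratios was not tested.

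**Figure D2:**
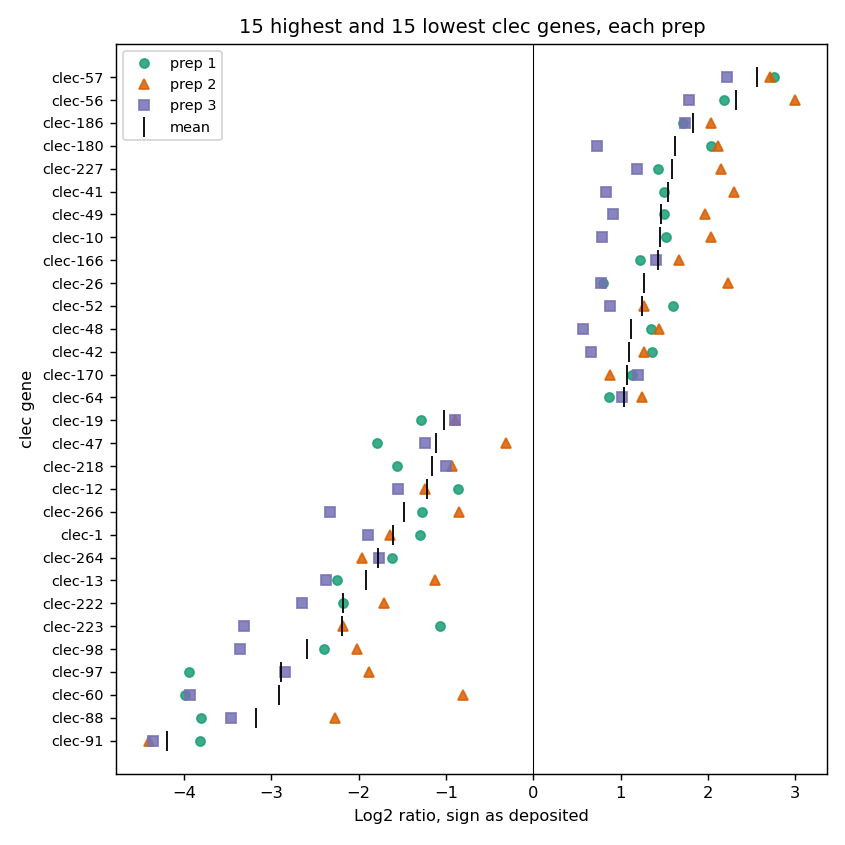
Log2 ratios (x axis, sign as deposited) of the 15 highest and 15 lowest *clec* genes past the threshold (y axis), 1 marker for each prep and a black tick for the mean of 3 preps. In the upper group the squares of prep 3 often lie nearest to 0, as for *clec-180*, and in the lower group *clec-60* has a prep 2 value of -0.80 far from the -3.99 and -3.93 of the other preps.

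Large ratios kept their calls when a prep was left out, and small ones did not. All 30 genes with an absolute mean over 1 passed in limma whichever 1 prep was left out, and so did *clec-165*. The other 18 calls, with absolute means of 0.55 to 0.99, were lost when at least 1 prep was left out. Among them were *clec-7*, *clec-27* and *clec-167*, lost without any of the preps, *clec-55* and *clec-67*, lost without prep 2 or prep 3, and *clec-63*, lost without prep 1 or prep 2. Without prep 1 or prep 3 limma gave every feature 1 shared variance, so a pass there says little about a gene with widely spread preps. Of the 18, 9 positive and 3 negative genes lay outside the rule for named genes. The largest, *clec-53* (named after its value was seen), was at 1.39, 1.60 and -0.02 with a mean of 0.99 ± 0.88, and it was the only called gene of the family whose preps differed in sign. It did not pass without prep 2 (limma adjusted p = 0.238, over alternatives from 2.04e-05 to 0.55).

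A set of 17 *clec* genes known from infection studies was compared next, of which 12 had a probe of their own. Of these 5 (41.7%) were positive and 2 (16.7%) negative past the threshold, beside 13.5% and 13.6% of all features, with a median of 0.33. The negative share was thus near the background. The set was chosen with earlier results of these data known, so its shares are a description and not a test. *clec-41* and *clec-42*, which take part in the response to *Bacillus thuringiensis*, were both positive. *clec-41* was at 1.4999, 2.30 and 0.83, and *clec-42* at 1.36, 1.26 and 0.66. *clec-49* was at 1.497, 1.96 and 0.91, while *clec-39* was at -0.09, -0.53 and -0.25 and did not pass (limma adjusted p = 0.306). Both have been linked to defence against *Serratia marcescens*, and their prep values did not overlap. *clec-52*, known for its induction by *Staphylococcus aureus*, was at 1.60, 1.27 and 0.87. *clec-67*, induced by *Pseudomonas aeruginosa* in a manner that needs the p38 kinase PMK-1, was at 0.45, 0.68 and 1.11, with a mean of 0.75 ± 0.33. The positive genes of this set numbered 4 without prep 2 or without prep 3, and 3 with a minimum of 1.5-fold. *clec-7*, the weaker of the negative genes at -0.56 ± 0.11, passed with all preps (limma adjusted p = 0.041, over alternatives from 0.0214 to 1) but with no pair of preps. *clec-86* at 0.46 ± 0.38, *clec-17* at 0.21 ± 0.25, *clec-61* at -0.18 ± 0.43 and *clec-65* at -0.38 ± 0.49 did not pass.

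The prep-to-prep spread was widest in *clec-60*, a gene induced in the intestine by *S. aureus* and by *Microbacterium nematophilum*. Its ratios were -3.99 and -3.93 in preps 1 and 3 but -0.80 in prep 2. Prep 2 lay 3.13 above the nearer of the other preps. In 2 of the 19075 features, this gene included, prep 2 lay at least that far above both others. Features with prep 2 below the others, or with another prep apart, were not counted. Its SD of 1.82 was among the 16 largest of the array, while the median SD was 0.32 for the family and 0.29 for all features. The mean of -2.91 passed (limma adjusted p = 0.000892), but with robust moderation of the variance it did not (limma adjusted p = 0.136, over alternatives from 2.54e-14 to 0.136). Without prep 2 the mean was -3.96. The other members with a wide spread were *clec-249* at -0.80, 0.20 and -2.34, which did not pass, *clec-223*, *clec-97*, and *clec-24* at -0.59, 1.32 and -0.17, which did not pass. The regulators by which the response of *clec-60* is known to run also differed from 0. The beta-catenin gene *bar-1* was at 0.74, 1.35 and 0.73, with a mean of 0.94 ± 0.35, and the Hox gene *egl-5* at -0.48, -0.71 and -0.47, with a mean of -0.55 ± 0.14. The call of *egl-5* was lost when prep 1 or prep 3 was left out. For both regulators prep 2 was farthest from 0, whereas for *clec-60* it was nearest to 0.

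Members with known roles outside the intestine gave mixed values. *clec-88* and *clec-87* both encode chondroitin proteoglycan core proteins, a class used in the eggshell and the early embryo. *clec-87* was at -0.56, -0.62 and -0.28, with a mean of -0.49 ± 0.18, and did not pass (limma adjusted p = 0.0749), while *clec-88* was more than 2 log2 units lower in mean. Among these and the 9 measured *cpg* genes, 6 were negative (54.5%) and 1 positive (9.09%), beside 13.6% and 13.5% of all features. *cpg-3* was the lowest of the 11, at -5.04, -3.12 and -4.33, and *cpg-1* was at -4.13, -3.08 and -3.89. *clec-88* and both of these *cpg* genes were least negative in prep 2, as were 50% of the 20 negative *clec* genes and 39.5% of all negative features. *clec-38*, which acts in axon outgrowth, was at 0.11, -0.41 and -0.23 and did not pass (limma adjusted p = 0.561).

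Many *clec* genes lie side by side on the chromosomes. Neighbours were defined as *clec* genes with at most 2 other genes between them in the RefSeq table of assembly WBcel235. This placed 137 of the 208 genes beside another *clec* gene, and 43 groups held at least 2 measured members. Pairs were counted only for neighbours with no other measured *clec* gene between them. Of 84 such pairs both genes passed in 10, and in all 10 the signs were the same. In 23 pairs 1 gene passed and the other did not, and in 51 neither did. Some of the 10 pairs shared a gene, as *clec-57* with *clec-227* and *clec-227* with *clec-56*. Uncounted neighbours could differ in sign, as *clec-56* (positive) and *clec-55* (negative), which have *clec-54* between them. The genes with a *clec* neighbour were 17.5% positive and 7.3% negative, and the 71 without one were 7.04% positive and 14.1% negative, beside 13.5% and 13.6% of all features. The negative share of the genes without a neighbour was thus at the background, and the difference between these groups was not tested. The sequences of the probes were not used here, so cross-hybridisation between similar neighbours was not tested. Some neighbours also had probes in the same block of consecutive probes, as *clec-227* and *clec-56*. The block medians of *clec-63* and *clec-64*, which lay in different blocks, were 0.29 and 0.34 in prep 2. The part of such block offsets in the shared signs was not tested.

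The groups with at least 4 measured members that held one of the extreme genes were of different kinds. On chromosome IV, *clec-165* at 0.82 ± 0.06, *clec-166*, *clec-167* at 0.59 ± 0.12 and *clec-170* were all positive past the threshold. The fifth member of that group, *clec-168*, was at 0.28 ± 0.36. On chromosome V the group with *clec-57*, *clec-227* and *clec-56* split within itself. These 3 genes were positive, at means of 1.59 to 2.56, whereas the adjoining *clec-54* was at -0.45 ± 0.71 and *clec-55* at -0.63 ± 0.36, the latter past the threshold with all preps but not without prep 2 or prep 3. On every array all 3 positive genes lay above both of these.

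On chromosome I, *clec-97* and *clec-98* were strongly negative among neighbours near 0. *clec-97* was at -3.95, -1.88 and -2.85, and *clec-98* at -2.39, -2.02 and -3.35. The other 5 members were *clec-93* at 0.51 ± 0.30, *clec-94* at -0.22 ± 0.15, *clec-95* at 0.31 ± 0.48, *clec-96* at -0.11 ± 0.17 and *clec-99* at 0.01 ± 0.25, and 0 of them passed in limma (1 of them, *clec-93*, at an unadjusted p under 0.05). *clec-60* on chromosome II likewise stood alone. Its group held *clec-59* at 0.51 ± 0.35, *clec-58* at 0.11 ± 0.26, *clec-143* at -0.13 ± 0.41 and *clec-61*, which did not pass.

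Another group on chromosome II held *clec-64* and *clec-63*, positive at 1.04 ± 0.19 and 0.82 ± 0.45, beside *clec-66* at 0.51 ± 0.32, *clec-62* at 0.07 ± 0.45 and *clec-65*. The call of *clec-63* was lost when prep 1 or prep 2 was left out. The largest group, on chromosome V, had 10 measured members. Of these *clec-26* and *clec-27* were positive, at 1.27 ± 0.83 and 0.65 ± 0.34, and *clec-27* was lost when any 1 prep was left out. In prep 2 *clec-26* reached 2.23, against 0.80 and 0.77 in the others. The other 8 members had means from -0.48 (*clec-31*) to 0.34 (*clec-33*), with *clec-22* at -0.02, *clec-28* at 0.05, *clec-35* at 0.08, *clec-37* at 0.13 and *clec-40* at -0.08.

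**Figure D3:**
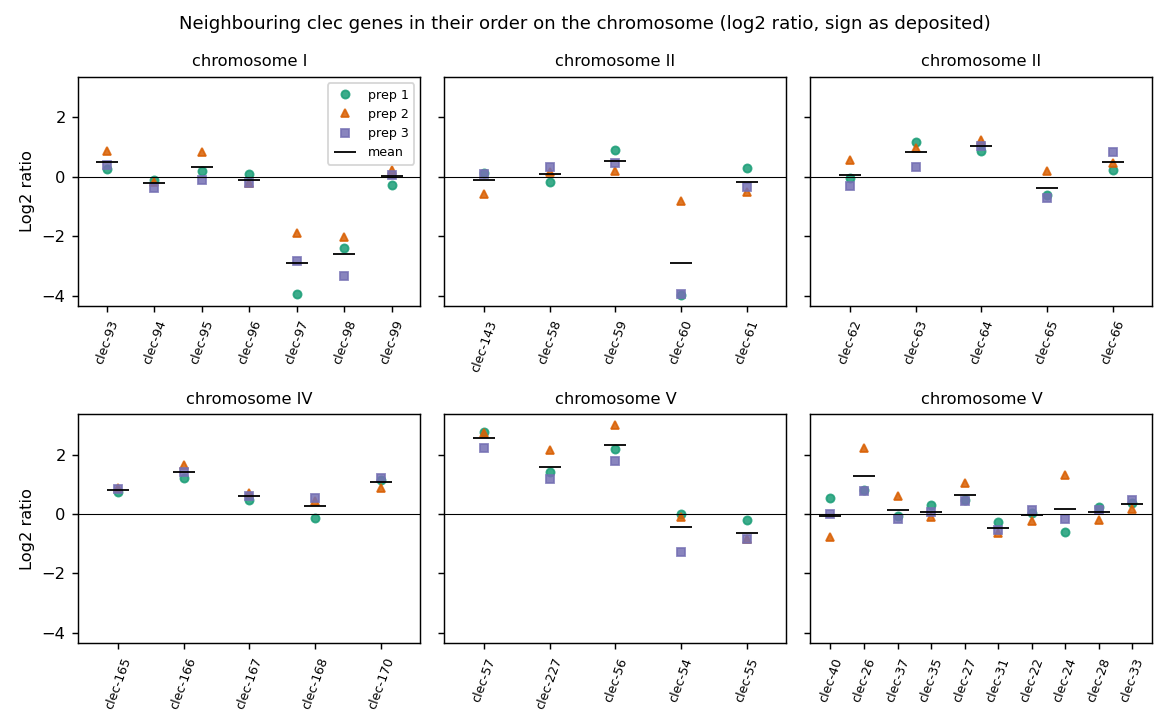
Log2 ratios (y axis, sign as deposited) of the *clec* genes of 6 neighbour groups, in their order on the chromosome (x axis, not to scale), with 1 marker for each prep and a bar for the mean of 3 preps. The means of *clec-165* to *clec-170* all lie above 0, although prep 1 of *clec-168* lies below it at -0.12. Another group holds a single outlying gene, *clec-60* at -2.91, and another splits, with *clec-57* at 2.56 and *clec-55* at -0.63.

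The counts are given by chromosome as a description, and differences between chromosomes were not tested. On chromosome IV 11 of 35 genes (31.4%) were positive and 0 negative in limma, where 13.6% of all 2247 named genes of that chromosome were positive and 17.6% negative. Under each other centring 1 of the 35 was negative, and with array weights 3 were. The positive count on chromosome IV fell to 6 when prep 2 or prep 3 was left out, to 8 when prep 1 was, and to 8 when values were centred within blocks of consecutive probes. On chromosome I 1 of 30 was positive (3.33%) and 5 negative (16.7%), beside 12.7% and 20.4% of its named genes. On chromosome II 3 of 48 were positive (6.25%) and 4 negative (8.33%), beside 13.5% and 16.1%. Chromosome V, with 77 of the genes, had 13 positive (16.9%) and 9 negative (11.7%), beside 12.2% and 13.9%, so that its shares were near the background. Of 15 genes on chromosome III 1 was positive and 1 negative (6.67% each), beside 16.6% and 15.2%. Of only 3 genes on X 1 was negative, where 385 of 2259 named genes were positive and 218 negative. The medians ran from -0.12 on X to 0.23 on chromosome IV.

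**Figure D4:**
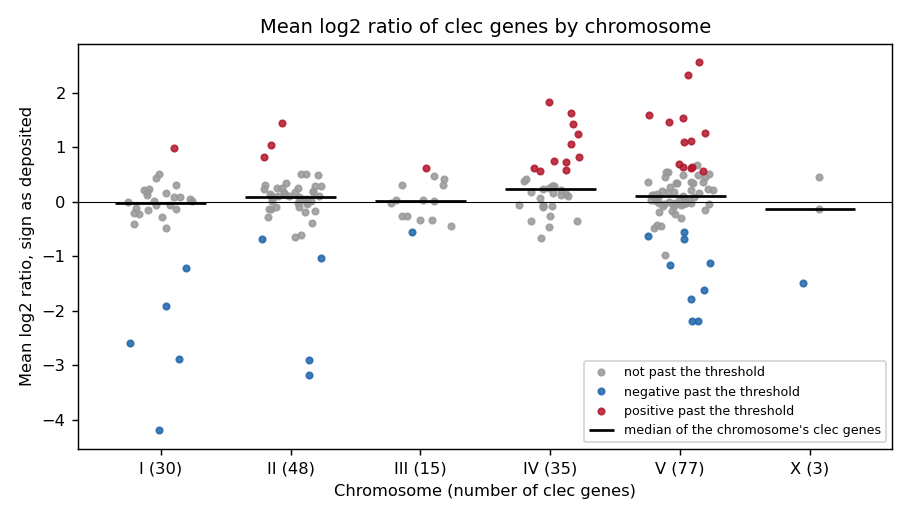
Mean log2 ratio (y axis, sign as deposited) of each *clec* gene by chromosome (x axis, with the number of genes); points are genes, coloured by their limma call, spread sideways for visibility, and black lines are medians. On chromosome IV 11 genes are positive and 0 negative, while chromosome I holds the lowest gene at -4.20.

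Of the 17 genes listed as pseudogenes, 0 passed in limma and 2 had an unadjusted p under 0.05, and their means ran from -0.44 to 0.49. The 49 calls all fell among the 191 protein-coding genes, of which 15.2% were positive and 10.5% negative. These shares were near or below the 13.5% and 13.6% of all features.

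Other genes of immune defence were compared as a whole, in the same fit. Of 72 effector genes named as lysozymes (*lys*, *ilys*), saposin-like proteins (*spp*), short peptides (*abf*, *cnc*, *fipr*), thaumatin-like proteins (*thn*), infection response genes (*irg*) or *dod* genes, 17 (23.6%) were positive and 26 (36.1%) negative, beside 13.5% and 13.6% of all features, with a median of -0.14. The farthest from 0 were *irg-5* at 4.89, 6.68 and 4.97, and *dod-19* at 3.93, 3.55 and 3.62. The lowest was *dod-23* at -3.17, -3.71 and -3.56. The families differed. Of 8 *irg* genes 4 were positive and 0 negative, of 16 *spp* genes 1 and 9, of 7 *cnc* genes 1 and 4, and of 3 *thn* genes 0 and 3. The *lys*, *ilys*, *dod* and *fipr* genes had calls on both sides. Of the 72 effector genes 48.6% had an absolute mean over 1, beside 14.4% of the *clec* family, and this difference was not tested. Of 21 regulators of immunity, among them the p38 pathway genes *tir-1*, *nsy-1*, *sek-1* and *pmk-1*, only *bar-1* was positive and only *egl-5* negative. *pmk-1* was at 0.39, 0.38 and 0.93 and did not pass (limma adjusted p = 0.0513). The GATA factor gene *elt-2*, which drives intestinal transcription, was at 0.47, 0.08 and 0.43 and did not pass either (limma adjusted p = 0.241).

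**Figure D5:**
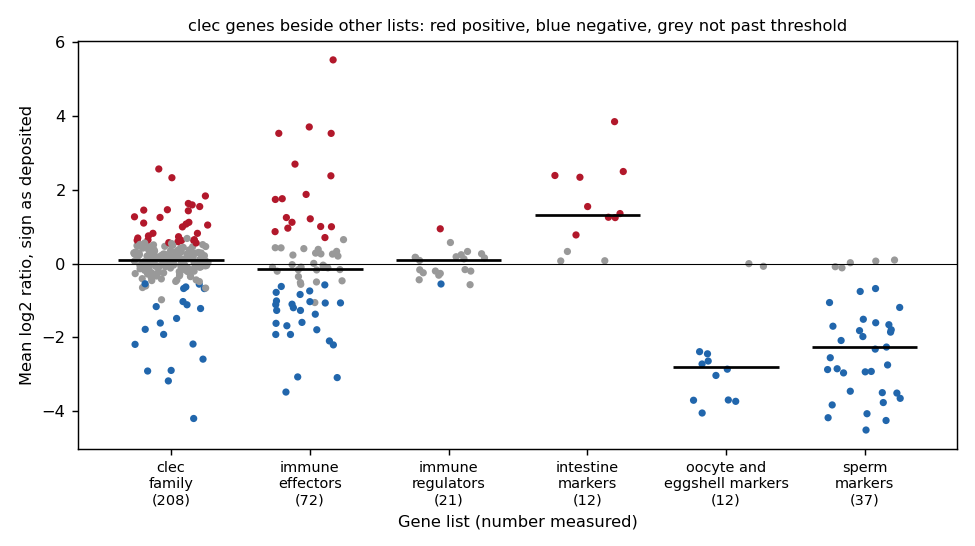
Mean log2 ratio (y axis, sign as deposited) of the genes of 6 lists (x axis, with the number measured); each point is a gene, red positive, blue negative and grey not past the threshold, and black lines are medians. The *clec* family is centred near 0 with tails from -4.20 to 2.56, the intestine markers lie at or above 0, and most oocyte and sperm markers lie below 0.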

How the data were processed

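The authors deposited a log2 ratio for each probe and array. How they scanned, background-corrected and normalized the arrays, and which dye each channel carried, is not given in the sources used here. The log2 scale was inferred from the values. Taken as powers of 2 and counted in thousandths, between 97.03% and 98.33% of them differed from a whole count of thousandths by under 0.001 of a thousandth, and as powers of e at most 0.4025%. The deposited medians were 0.02715, -0.06643 and 0.03281. Signal over background was not used here, so weak spots were not separated from strong ones, and the number of arrays limits the precision.

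Of 20000 probes 15655 had 1 gene in a platform annotation of 2007, 198 had several and 4147 none listed. RefSeq's table of assembly WBcel235 gave current symbols by Entrez identifier for 15569 of the first. Each array was centred on its median over all probes. Probes with a value on all 3 arrays were kept and averaged per gene, which left out 1 of the 219 *clec* probes. Of 264 *clec* genes in RefSeq, 56 had no probe of their own and were not analysed here. limma 3.58.1 (R 4.3.3; lmFit, eBayes, two-sided) compared the mean of each of 19075 features with 0. The test leaves out the reference's own spread. Its prior had 9.23 degrees of freedom and the arrays added 2. In simulated data with 19075 features, 86 of 100 features changed by 1 log2 unit and 100 of 100 changed by 2 were recovered, with 12 false calls. The simulated noise was normal, independent between features and drawn from limma's moderated variances, and far fewer features changed than were called here. Block offsets and outlying preps were not simulated, so these numbers do not give the performance on these arrays.

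Genes were named by rule: the 15 highest and 15 lowest past the threshold with 1 sign on all arrays, the infection, proteoglycan and axon members, the 5 largest SDs, and neighbour groups of 4 or more measured members that hold an extreme gene. From the other lists the 2 largest absolute means were named, and further genes were chosen after their values were seen. The members and lists were chosen with earlier results of these data known. Plots used matplotlib 3.10.9 and Python 3.11.15. Each array title holds its own date, which leaves no batch to fit. The choices varied were centring, scaling, the number of arrays required, averaging of probes, array weights, robust moderation, a 1.5-fold minimum and each prep in turn. Protein and promoter features were planned but not analysed here.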

Additional observations from a re-analysis of the deposited data

How the results depend on the processing

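The counts of *clec* genes past the threshold held within 1.5 times under the other centrings and scalings. They also did so with at least 2 arrays per probe, single probes, array weights or robust moderation. Array weights gave 34 positive and 30 negative genes. Centring within blocks of consecutive probes gave 27 and 19, but kept only 39 of the 49 calls, so similar counts did not mean the same genes. With a minimum of 1.5-fold the *clec* counts fell to 10 positive and 12 negative genes, beside 780 and 862 of all 19075 features. With 1 prep left out, the positive genes ranged from 17 to 21 and the negative from 17 to 19. Over all features the ranges were 1748 to 2252 and 1820 to 2161. The family's median stayed within the spread between preps under every alternative run. Alternatives for the other lists were chosen after seeing the data. The minimum of 1.5-fold left 11 positive and 15 negative immune effectors, and 0 positive and 0 negative regulators. The positive regulators numbered 2 with values not centred, centred on the mean, quantile normalized, with array weights or with robust moderation, and the negative regulators 2 with array weights. With 1 prep left out the negative regulators ranged from 0 to 1. P-values without 1 prep are not comparable with those from 3, as limma's prior was then infinite without prep 1 or prep 3 and held 4.25 degrees of freedom without prep 2. No named *clec* gene that passed, here or in an alternative, changed sign. No paired analysis was possible because there was 1 group of samples.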

Other observations

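The platform annotation lists 3 probes for a *clec* gene together with another gene, and these entered no comparison. From 1 to the next, their log2 ratios in preps 1, 2 and 3 were -2.82, -1.11 and -2.36, then -1.85, -1.33 and -2.44, then 0.29, 0.07 and -0.65. The first pair of probes passed the threshold (limma adjusted p = 0.000213 and 9.88e-05) and the last did not (limma adjusted p = 0.81).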
